A study of Mus musculus with 8 samples.

Results

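The Krüppel-like factors described here are 10 genes, *Klf2*, *Klf3*, *Klf4*, *Klf5*, *Klf6*, *Klf7*, *Klf9*, *Klf10*, *Klf11* and *Klf13*, taken by symbol from a count table of 37310 genes. All 10 had a row, and 9 were among the 13028 genes that passed the filter for low counts. *Klf2* did not pass and was not tested. RNA came from NMuMG, a line of epithelial cells derived from the mammary gland of a normal mouse, in 4 groups of 2 libraries, which the study calls biological replicates. These were control cells without treatment, control cells given TGF-β1 at 10 ng/ml for 2 h, and *Lnc-Nr6a1* knockout cells in the same states, untreated and after 2 h of TGF-β1 at 10 ng/ml. The knockout was a CRISPR-Cas9 deletion in the long non-coding RNA *Lnc-Nr6a1*, with guide RNAs that cut in its promoter and in its first exon, and edited cells were grown from single sorted cells, so the effect of the deletion and the properties of a clone cannot be told apart. The comparisons ask how the members respond to TGF-β early on, and whether this differs in cells made to lack *Lnc-Nr6a1*.

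The untreated control libraries held 7871090 and 7800602 counts, the treated control libraries 11210495 and 9895118, the untreated libraries labelled knockout 4297832 and 7181737, and the treated libraries labelled knockout 12761749 and 13574397. The level given by 3 counts, taken as the floor of a library, lay between 0.238 and 0.661 CPM (a count relative to the library's total after TMM scaling) and covers counting error only. *Lnc-Nr6a1*, listed as Gm13507 on the plus strand of chromosome 2 (NCBIM37, 38678777 to 38707890), had 3 and 14 counts in untreated control cells, 25 and 35 in treated control cells, 11 and 7 in untreated libraries labelled knockout and 0 and 0 in treated ones. These counts are of the whole gene, and reads inside the deleted part were not counted separately. The gene lies within *Nr6a1* on the other strand and shares 0 exon bases with it, and whether counting used the strand is not given. By RT-qPCR the study reports complete loss of the isoforms in homozygous clones. Within these limits the count of the targeted gene goes against the label of the untreated knockout libraries, and the term "labelled knockout" is used throughout. *Mal2*, *Dsg2* and *Fam111a* had from 52 to 188 counts in each control library and 0 in each library labelled knockout, so the libraries divide by label. The study itself reports these genes as lower in its knockout cells, from this profiling and by RT-qPCR. They are therefore no independent check of the labels, and they do not show whether *Lnc-Nr6a1* was lost.

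Of 7 epithelial markers, *Krt8*, *Krt18*, *Krt19* and *Cdh1* were abundant, with a summed marker level from 5872 to 6968 CPM in the untreated and from 7937 to 10927 CPM in the treated libraries, whereas *Cldn3* and *Cldn7* had 0 counts in all libraries and *Epcam* had 2 counts in 1 library and 0 in the others. The summed level of 6 fibroblast markers was at most 4.85 CPM, led by *Col1a1*, that of 5 leukocyte markers at most 5.32 CPM, led by *Cd68*, and that of 4 endothelial markers at most 0.847 CPM, led by *Cdh5*. After TGF-β, edgeR called 0 of the 4 tested epithelial markers higher in the libraries labelled knockout, DESeq2 1 and limma-voom 0. At an unadjusted p below 0.05 edgeR gave 2 of them higher (*Krt8* and *Cdh1*). The log2 fold changes of *Krt8* and *Krt18* in these libraries were 0.58 and 0.48 (SE 0.17 and 0.22, Benjamini-Hochberg adjusted p = 0.0792 and 0.229 with edgeR's quasi-likelihood test). There, 4.25% of all tested genes were called higher. In control cells TGF-β called 2 of these 4 higher, *Krt8* and *Krt18*, where 4.69% of all tested genes were called higher. Their log2 fold changes were 0.65 and 0.96 (SE 0.17 and 0.22, Benjamini-Hochberg adjusted p = 0.0472 and 0.0295 with edgeR's quasi-likelihood test). These calls held in 8 and 9 of 15 alternative fits and were lost without either untreated control library, replicate 1 of the treated control libraries or either untreated library labelled knockout and with the 4 control libraries alone, that of *Krt8* also with the replicate number as a block (edgeR's adjusted p up to 0.206 and 0.180).

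Krüppel-like factors are transcription factors with zinc fingers at the C-terminus that bind GC-rich and CACCC sequences, the same kind of site that Sp proteins bind. Their N-terminal parts differ: *Klf2*, *Klf4*, *Klf5*, *Klf6* and *Klf7* encode proteins that mostly activate transcription, the product of *Klf3* represses through CtBP, and those of *Klf9*, *Klf10*, *Klf11* and *Klf13* bind the SIN3 co-repressor. *Klf10* and *Klf11* were described as early genes induced by TGF-β, and *Klf4* and *Klf5* are known for their roles in epithelia.

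Per kilobase of exon, *Klf6* was the most abundant member in every group, and *Klf7*, *Klf11* and *Klf2* stood last in that order in every group. In untreated control cells the level was 38.4 ± 7.08 CPM per kb (SD, n = 2) for *Klf6*, followed by *Klf5* (25.3 ± 0.735), *Klf3* (23.3 ± 2.99), *Klf13* (20.5 ± 0.127), *Klf10* (15.8 ± 0.581), *Klf4* (15.4 ± 0.269), *Klf9* (12.8 ± 1.71), *Klf7* (3.57 ± 0.241) and *Klf11* (1.97 ± 0.524). Libraries overlapped between *Klf5* and *Klf3* and between *Klf10* and *Klf4*, so these neighbours were not separated beyond their spread. After TGF-β, *Klf10* stood second in control cells at 31.6 ± 2.11 CPM per kb (SD, n = 2), and *Klf3* stood behind *Klf4* at 9.31 ± 0.692.

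In the untreated libraries labelled knockout the order of the members was the same as in untreated control cells, from *Klf6* at 38.0 ± 1.80 CPM per kb (SD, n = 2) to *Klf11* at 2.44 ± 0.162. In the treated libraries labelled knockout, *Klf6* reached 97.9 ± 32.2 CPM per kb (SD, n = 2), *Klf10* followed at 35.7 ± 5.54 and *Klf13* at 30.9 ± 3.16. There, each member from *Klf10* to *Klf9* overlapped with the next in the order, down to *Klf3*, while *Klf6*, *Klf7*, *Klf11* and *Klf2* overlapped with no neighbour. The summed level of the 10 members was 151 and 163 CPM per kb in untreated control cells and 164 and 159 in the untreated libraries labelled knockout, against 220 and 175 in treated control cells and 218 and 286 in the treated libraries labelled knockout. *Klf6* made up 22.2 to 26.5% of that sum in the untreated libraries and 34.4 to 43.3% in the treated ones, while the share of *Klf3* was 14.1 to 15.9% without TGF-β and 4.01 to 7.41% with it. As these are bulk samples, fewer cells with a transcript and less of it per cell cannot be told apart.

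**Figure D1:**
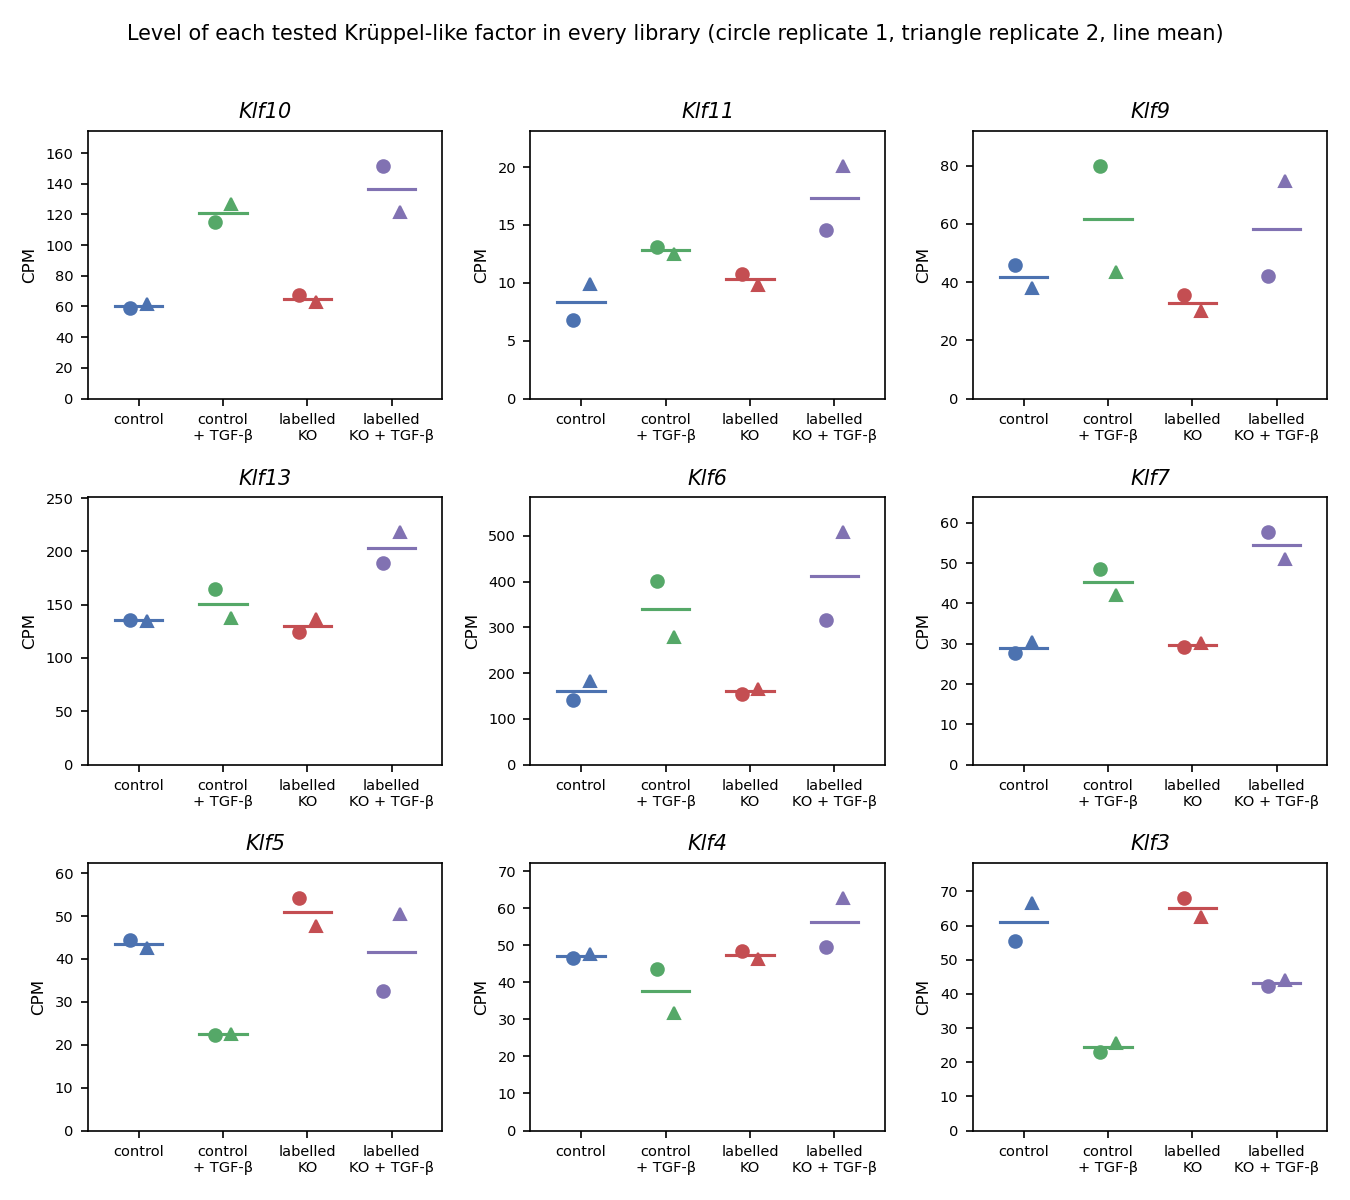
Level of each of the 9 tested members in every library, in CPM on a linear axis from 0, with 1 panel per gene, circles for replicate 1, triangles for replicate 2 and a line at the mean of the 2 libraries of a group. *Klf10* lies between 115 and 152 CPM in the 4 treated libraries and between 58.7 and 67.5 in the untreated ones, *Klf3* is lowest in the treated control libraries, and the replicates of *Klf6* and *Klf9* lie far apart after TGF-β.

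Calls rest on edgeR's quasi-likelihood test with Benjamini-Hochberg (BH) adjustment, at an adjusted p below 0.05 with a log2 fold change beyond 0.5 in size. In control cells TGF-β called 3 of the 9 tested members higher (*Klf6*, *Klf7* and *Klf10*), where 4.69% of all tested genes were called higher, and 2 lower (*Klf3* and *Klf5*), where 4.47% of all were called lower. The libraries labelled knockout had 4 members called higher (*Klf6*, *Klf7*, *Klf10* and *Klf13*), against 4.25% of all tested genes, and 0 lower, against 2.57%. For this count of 0, 1 member (*Klf3*) was lower at an unadjusted p below 0.05 in edgeR, and DESeq2 and limma-voom called 0 as well. The median log2 fold change of the tested members after TGF-β was 0.56 in control cells, where that of all tested genes was 0.016, and 0.75 in the libraries labelled knockout, where that of all tested genes was 0. The direction of each of the 9 members after TGF-β was the same in every alternative fit of both comparisons, other scalings included.

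**Figure D2:**
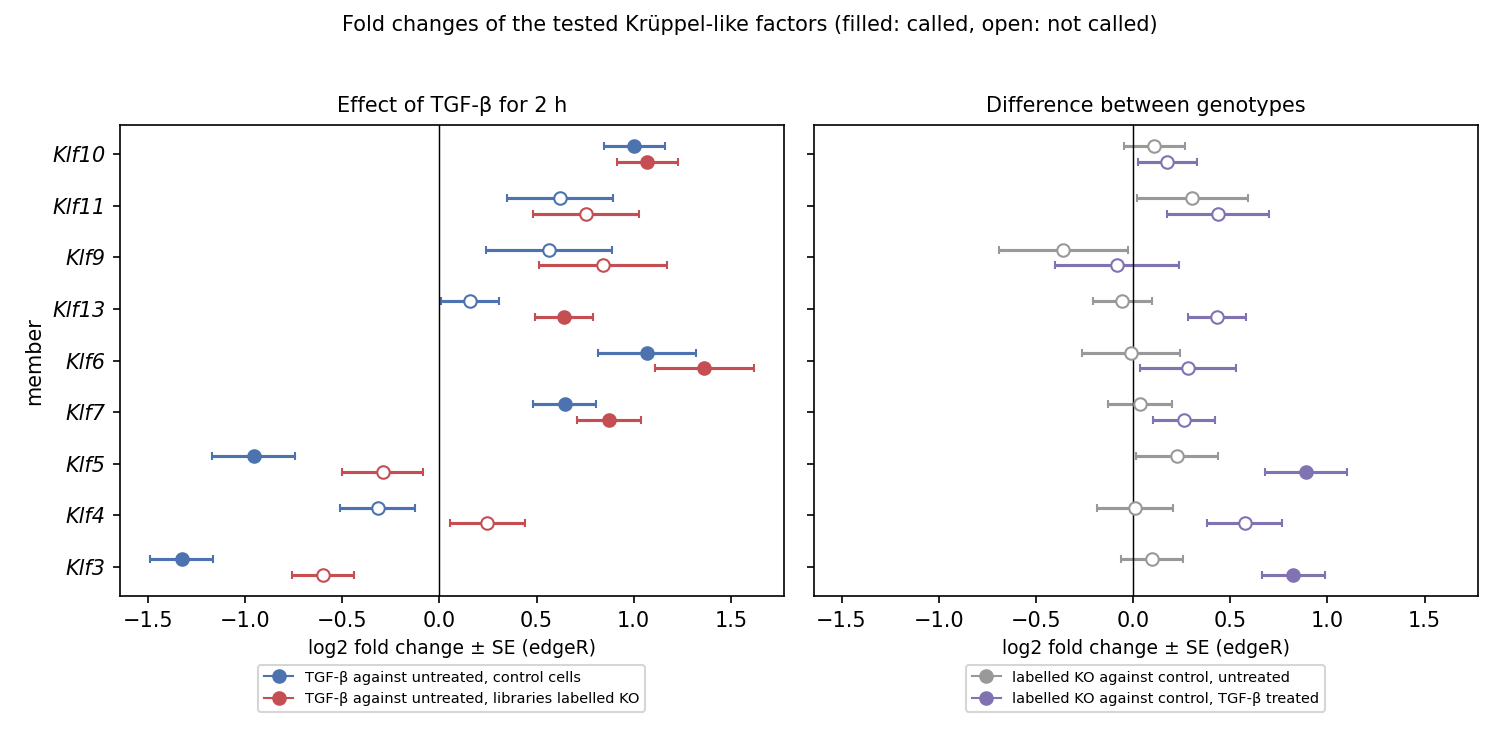
Log2 fold changes of the 9 tested members with their standard errors from edgeR, after TGF-β in each genotype (left) and between genotypes in each treatment (right), with filled points for called genes and open points for the others. *Klf10*, *Klf6* and *Klf7* are filled in both genotypes on the left, and on the right only *Klf5* and *Klf3* are filled, both in the treated libraries.

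Among the SIN3-binding members, *Klf10* (ENSMUSG00000037465.8, chromosome 15, 38221219 to 38230464, minus strand), which encodes a repressor described as a mediator of growth inhibition by TGF-β, rose in both genotypes. It was at 58.7 and 61.9 CPM in untreated control cells, 115 and 127 in treated control cells, 67.5 and 62.9 in untreated libraries labelled knockout and 152 and 122 in treated ones. All 4 treated libraries lay above all 4 untreated ones. The log2 fold change was 1.00 (SE 0.16, BH-adjusted p = 0.00599 with edgeR's quasi-likelihood test) in control cells and 1.07 (SE 0.16, BH-adjusted p = 0.00479 with edgeR) in the libraries labelled knockout, or 2.01-fold and 2.10-fold. The first call was lost without control replicate 1 (log2 fold change 0.97, BH-adjusted p = 0.0828 with edgeR) and the second without replicate 1 or 2 of the untreated libraries labelled knockout (1.12 and 1.02, BH-adjusted p = 0.0561 and 0.0781 with edgeR). Over 15 alternative fits the adjusted p of edgeR, DESeq2 or limma-voom ranged from 9.50e-06 to 0.0828 and from 2.51e-07 to 0.0781.

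*Klf11* (ENSMUSG00000020653.5, chromosome 12, 25336236 to 25347639, plus strand), the closest relative of *Klf10* in the family, was rare, with 49 to 81 counts in the untreated and 118 to 253 in the treated libraries. Its level lay between 6.75 and 10.8 CPM without TGF-β and between 12.5 and 20.1 CPM with it, so the treated libraries lay above the untreated ones in both genotypes. It was not called in either, with a log2 fold change of 0.62 (SE 0.27, BH-adjusted p = 0.181 with edgeR) in control cells and 0.75 (SE 0.27, BH-adjusted p = 0.140 with edgeR) in the libraries labelled knockout. With single libraries left out, the first ran from 0.37 to 0.92 and the second from 0.51 to 0.97.

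*Klf13* (ENSMUSG00000052040.7, chromosome 7, 71031237 to 71083801, minus strand), known as a regulator of chemokine expression in lymphocytes, was at 136 and 135 CPM in untreated and 165 and 137 in treated control cells. In the libraries labelled knockout it was at 124 and 136 CPM without and 189 and 218 with TGF-β. Replicate 2 of the treated control libraries lay close to the untreated control libraries, while both treated libraries labelled knockout lay above all other libraries. The log2 fold change after TGF-β was 0.16 (SE 0.15, BH-adjusted p = 0.537 with edgeR) in control cells and 0.64 (SE 0.15, BH-adjusted p = 0.0354 with edgeR) in the libraries labelled knockout, where it was called. That call was lost without control replicate 1 or 2, without either untreated library labelled knockout, without replicate 2 of the treated ones and with the replicate number as a block (edgeR's adjusted p from 0.0602 to 0.226, and from 0.00223 to 0.226 over 15 alternatives). In control cells the log2 fold change of *Klf13* ran from 0.016 to 0.26 with single libraries left out. The interaction of genotype and treatment was not called (log2 0.49, SE 0.21, BH-adjusted p = 0.561 with edgeR).

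*Klf9* (ENSMUSG00000033863.1, chromosome 19, 23215716 to 23241401, plus strand), a gene induced by glucocorticoid and thyroid hormone, had the least even replicates. It was at 45.7 and 37.8 CPM in untreated control cells, 79.9 and 43.5 in treated control cells, 35.5 and 29.9 in untreated libraries labelled knockout and 42.1 and 74.6 in treated ones. Replicate 1 was high in treated control cells and replicate 2 in the treated libraries labelled knockout. *Klf6* had the same high libraries, and so had *Jun*, an immediate early gene, at 84.7 and 31.2 CPM in treated control cells and 31.0 and 125 CPM in the treated libraries labelled knockout. *Klf4*, *Klf11* and *Klf13* were also higher in these libraries than in the other replicate of each treated group. *Klf3*, *Klf5*, *Klf7* and *Klf10* did not have this order in both treated groups. The summed epithelial markers were highest in these same libraries, at 10927 and 8027 CPM in treated control cells and 7937 and 10386 CPM in the treated libraries labelled knockout. The part of this spread between replicates, and of the markers, in the results was not tested. For *Klf9* the log2 fold change was 0.56 (SE 0.32, BH-adjusted p = 0.292 with edgeR) in control cells and 0.84 (SE 0.33, BH-adjusted p = 0.168 with edgeR) in the libraries labelled knockout, and neither was called. With single libraries left out, the first ran from 0.053 to 0.91 and the second from 0.38 to 1.20. Without the filter for low counts the second was called (log2 fold change 0.90, BH-adjusted p = 5.48e-04 with edgeR, within a range from 5.48e-04 to 0.647 over the alternatives).

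Among the activators, *Klf6* (ENSMUSG00000000078.6, chromosome 13, 5860735 to 5869639, plus strand), an immediate early gene known from liver stellate cells, rose in both genotypes. Its level was 141 and 183 CPM in untreated control cells, 401 and 278 in treated control cells, 155 and 166 in untreated libraries labelled knockout and 317 and 509 in treated ones. All 4 treated libraries lay above all 4 untreated ones, with the treated replicates far apart in both genotypes. The log2 fold change was 1.07 (SE 0.25, BH-adjusted p = 0.0317 with edgeR) in control cells and 1.36 (SE 0.25, BH-adjusted p = 0.0142 with edgeR) in the libraries labelled knockout. In control cells the call was lost when either untreated control library, replicate 1 of the treated control libraries or either untreated library labelled knockout was left out (log2 0.77 to 1.27, edgeR's adjusted p from 0.0659 to 0.226). In the libraries labelled knockout it was lost without either untreated library or replicate 2 of the treated ones (log2 0.99 to 1.41, edgeR's adjusted p from 0.0723 to 0.130). The lowest adjusted p of the alternatives was 5.77e-08 and 5.75e-14 (edgeR without the filter for low counts), and the highest 0.226 and 0.130 (edgeR).

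*Klf7* (ENSMUSG00000025959.6, chromosome 1, 64076021 to 64168856, minus strand), which acts in neurons, was at 27.6 and 30.4 CPM in untreated and 48.5 and 42.2 in treated control cells. In the libraries labelled knockout it was at 29.1 and 30.3 CPM without and 57.8 and 51.1 with TGF-β. All 4 untreated libraries lay within 27.6 to 30.4 CPM, and all treated libraries lay above them. The log2 fold change was 0.65 (SE 0.16, BH-adjusted p = 0.0390 with edgeR) in control cells and 0.87 (SE 0.16, BH-adjusted p = 0.0148 with edgeR) in the libraries labelled knockout. The call in control cells was kept in 6 of 15 alternatives (adjusted p of edgeR, DESeq2 or limma-voom from 0.0332 to 0.246) and was lost with any library left out other than replicate 2 of the treated control libraries (log2 0.54 to 0.72), with the replicate number as a block (BH-adjusted p = 0.0634 with edgeR) and with the 4 control libraries alone (BH-adjusted p = 0.114 with edgeR). That in the libraries labelled knockout was lost without either untreated library or replicate 1 of the treated ones (edgeR's adjusted p from 0.0578 to 0.121, the lowest of the alternatives being 5.08e-04). *Klf7* shares 3196 exon bases, 39.3% of its exon length, with the lincRNA Gm17427 on the other strand, which had 0 counts in all libraries, and its counts are uncertain as the sources used here do not say whether counting used the strand.

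*Klf5* (ENSMUSG00000005148.7, chromosome 14, 99697910 to 99712624, plus strand), a factor of proliferating epithelial cells, was called lower after TGF-β in control cells. It was at 44.4 and 42.6 CPM in untreated and 22.3 and 22.5 in treated control cells, and at 54.2 and 47.7 CPM in the untreated and 32.6 and 50.5 in the treated libraries labelled knockout. Both treated control libraries lay at about the same level and below all others, whereas the treated libraries labelled knockout overlapped with the untreated ones. The log2 fold change was -0.96 (SE 0.21, BH-adjusted p = 0.0275 with edgeR, or 1.94-fold lower) in control cells and -0.29 (SE 0.21, BH-adjusted p = 0.457 with edgeR) in the libraries labelled knockout. With single libraries left out, the value in the libraries labelled knockout ran from -0.63 to -0.0031. In control cells the call was lost when any 1 of the 4 control libraries or of the 2 untreated libraries labelled knockout was left out (log2 fold change from -0.99 to -0.93, edgeR's adjusted p from 0.0506 to 0.170, the lowest of the alternatives being 3.37e-04) and held in the other 9 of 15 alternatives.

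*Klf4* (ENSMUSG00000003032.7, chromosome 4, 55540013 to 55545347, minus strand), a factor of epithelial differentiation and of pluripotency, was at 46.4 and 47.6 CPM in untreated and 43.7 and 31.7 in treated control cells. In the libraries labelled knockout it was at 48.5 and 46.3 CPM without and 49.6 and 62.8 with TGF-β. All 4 untreated libraries lay within 46.3 to 48.5 CPM, with both treated control libraries below and both treated libraries labelled knockout above that range. Replicate 1 of each treated group, at 43.7 and 49.6 CPM, lay close to that range. Neither response passed the test, with a log2 fold change of -0.32 (SE 0.19, BH-adjusted p = 0.325 with edgeR) in control cells and 0.25 (SE 0.19, BH-adjusted p = 0.496 with edgeR) in the libraries labelled knockout. With single libraries left out, the first ran from -0.57 to -0.13 and the second from 0.074 to 0.42.

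*Klf2* (ENSMUSG00000055148.7, chromosome 8, 74842932 to 74845555, plus strand), a flow-responsive factor of the endothelium, had 0 and 0 counts in untreated control cells, 0 and 1 in treated control cells, 0 and 2 in untreated libraries labelled knockout and 1 and 2 in treated ones. No library exceeded the floor of 3 counts, so no difference was detectable at this depth and no fold change is given. Of the 4 endothelial markers, only *Kdr* had 0 counts in all libraries. *Cdh5* was at 0.562 and 0.847 CPM in treated control cells and at 0.245 and 0.556 CPM in the treated libraries labelled knockout. *Pecam1* reached 0.362 CPM in replicate 1 of the untreated control cells, and *Tek* 0.133 CPM in replicate 2 of the untreated libraries labelled knockout.

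*Klf3* (ENSMUSG00000029178.7, chromosome 5, 65194628 to 65221368, plus strand), the CtBP-binding repressor, fell after TGF-β in control cells. It was at 55.5 and 66.5 CPM in untreated control cells, 23.1 and 25.6 in treated control cells, 68.1 and 62.5 in untreated libraries labelled knockout and 42.2 and 43.9 in treated ones. The 4 groups formed 3 levels, with the untreated libraries of both genotypes highest and overlapping, the treated libraries labelled knockout between, and the treated control libraries lowest. After TGF-β the log2 fold change in control cells was -1.33 (SE 0.16, BH-adjusted p = 0.00230 with edgeR), which is 2.51-fold lower, and *Klf3* was called in all 15 alternatives (log2 fold change from -1.45 to -1.19, highest adjusted p 0.0253 with edgeR). In the libraries labelled knockout the log2 fold change was -0.60 (SE 0.16, BH-adjusted p = 0.0551 with edgeR), which missed the threshold. It was called there when only the 4 libraries labelled knockout were fitted (BH-adjusted p = 0.0490 with edgeR) or when replicate 1 or 2 of the treated control libraries was left out (BH-adjusted p = 0.0400 and 0.0391 with edgeR), within a range from 0.0391 to 0.264 over the alternatives.

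Between the untreated libraries of the genotypes, 0 of the 9 tested members were called in either direction, where the calls among all tested genes were 1.03% higher and 0.798% lower in those labelled knockout. DESeq2 and limma-voom also called 0 members, and 0 members had an unadjusted p below 0.05 in edgeR. Differences on the log2 scale ran from -0.36 for *Klf9* (95% interval -1.11 to 0.39) to 0.31 for *Klf11* (95% interval -0.33 to 0.94), with a median of 0.035 beside 0.018 for all tested genes. For *Klf3* the 95% interval was -0.26 to 0.45 and for *Klf10* -0.24 to 0.46, so differences within these bounds could not be seen. The directions come from the labels, which *Lnc-Nr6a1* itself did not separate in these libraries.

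The comparison of the treated genotypes shares its libraries with both TGF-β comparisons, so its values stand beside theirs and are not independent. It called 2 members (*Klf3* and *Klf5*) higher in those labelled knockout than in those of control cells, where 8.47% of all tested genes were called higher, and 0 were called lower, where 6.57% of all were. For the latter count, 0 members were lower at an unadjusted p below 0.05 in edgeR, and DESeq2 and limma-voom called 0. The log2 difference was 0.82 (SE 0.16, BH-adjusted p = 0.0116 with edgeR) for *Klf3*, or 1.77-fold, and 0.89 (SE 0.21, BH-adjusted p = 0.0240 with edgeR) for *Klf5*, or 1.85-fold. For both genes each treated library labelled knockout lay above each treated control library. Both calls were lost when only the 4 treated libraries were fitted (BH-adjusted p = 0.0700 and 0.108 with edgeR) and without replicate 2 of the treated libraries labelled knockout (log2 0.80 and 0.54, BH-adjusted p = 0.0695 and 0.181 with edgeR), and that of *Klf5* also without replicate 2 of the treated control libraries (log2 0.91, BH-adjusted p = 0.0624 with edgeR). Over the 15 alternatives the adjusted p ranged from 8.93e-04 to 0.0700 for *Klf3* and from 4.69e-04 to 0.181 for *Klf5* (edgeR, DESeq2 or limma-voom).

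Of the members not called between treated genotypes, *Klf4* had a log2 difference of 0.57 (SE 0.19, BH-adjusted p = 0.0735 with edgeR), *Klf11* of 0.44 (SE 0.26, BH-adjusted p = 0.284 with edgeR) and *Klf13* of 0.43 (SE 0.15, BH-adjusted p = 0.0800 with edgeR). Without replicate 1 of the treated control libraries *Klf4* and *Klf13* were called (log2 0.82 and 0.56, BH-adjusted p = 0.0216 and 0.0397 with edgeR), and *Klf4* also without the filter for low counts (BH-adjusted p = 0.0302 with edgeR) and with the replicate block after swapping the numbers of the treated libraries labelled knockout (log2 0.58, BH-adjusted p = 0.0261 with edgeR), a setting chosen after seeing the data. Over all alternatives the adjusted p ranged from 0.0216 to 0.363 for *Klf4* and from 0.0397 to 0.348 for *Klf13* (edgeR, DESeq2 or limma-voom). For the inducible members the differences were smaller than for *Klf3* and *Klf5*, at 0.18 (SE 0.15) for *Klf10*, 0.28 (SE 0.25) for *Klf6* and 0.26 (SE 0.16) for *Klf7* on the log2 scale.

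Whether the response to TGF-β differed between genotypes was tested by the interaction, which called 0 members by edgeR's adjusted p, as it called 0% of all tested genes. At an unadjusted p below 0.05 edgeR gave 2 members (*Klf3* and *Klf13*) and 1134 of all tested genes, and DESeq2 and limma-voom called 0 members, while DESeq2 called 30 genes in all. The log2 difference of the responses was 0.73 (SE 0.23, 95% interval 0.22 to 1.24, BH-adjusted p = 0.474 with edgeR) for *Klf3*, 0.66 (SE 0.30, 95% interval -0.0083 to 1.33, BH-adjusted p = 0.578 with edgeR) for *Klf5* and 0.56 (SE 0.27, BH-adjusted p = 0.602 with edgeR) for *Klf4*. For *Klf10* it was 0.066 (SE 0.22, 95% interval -0.42 to 0.56). The estimates of all 9 members lay above 0, with a median of 0.29 against -7.24e-05 for all tested genes, but those of *Klf6*, *Klf9*, *Klf10* and *Klf11* fell below 0 when single libraries were left out. All 9 come from the same 8 libraries and are not independent of each other.

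Of the 16 other genes of the Klf and Sp family, 7 passed the filter. With edgeR TGF-β called 0 of them in either genotype, against 2 and 1 lower at an unadjusted p below 0.05, 0 and 0 with DESeq2, and 0 and 1 lower with limma-voom. The edgeR calls after TGF-β among all tested genes were 4.69% higher and 4.47% lower for the control genotype. For the knockout-labelled genotype they were 4.25% higher and 2.57% lower. *Klf12*, which like *Klf3* encodes a repressor that binds CtBP, was at 5.55 and 6.10 CPM in untreated control cells, 3.65 and 3.28 in treated control cells, 16.5 and 16.9 in untreated libraries labelled knockout and 8.48 and 9.22 in treated ones. Every library labelled knockout lay above every control library. It was called higher in the libraries labelled knockout without (log2 1.52, SE 0.25, BH-adjusted p = 0.0198 with edgeR) and with TGF-β (log2 1.35, SE 0.26, BH-adjusted p = 0.0109 with edgeR), and so was *Sp8* (log2 1.08, SE 0.23, adjusted p = 0.0493, and log2 1.72, SE 0.23, adjusted p = 0.00269, edgeR). These 2 of 7 stand beside 1.03% and 8.47% of all tested genes. Without any 1 of the 4 untreated libraries the calls in untreated cells were lost (edgeR's adjusted p up to 0.175 for *Klf12* and 0.301 for *Sp8*, from 0.00108 and 0.00695 over the alternatives), that of *Sp8* also without either treated library labelled knockout. *Sp8* was not called there by limma-voom, with RLE factors, with a mean of at least 10 counts or with the replicate block either, and held in 5 of 15 alternatives. The call of *Klf12* with TGF-β was lost without replicate 2 of the treated libraries labelled knockout and with the 4 treated libraries alone (edgeR's adjusted p up to 0.0728, from 0.00134 over the alternatives).

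Genes that act on the members were also read. Of 11 genes of co-regulators and protein turnover, all tested, TGF-β called 2 higher in each genotype, *Ctbp2* and *Fbxw7*, where 4.69% and 4.25% of all tested genes were called higher. *Ctbp2*, a partner of the *Klf3* product, rose by 0.90 (SE 0.16, BH-adjusted p = 0.0118 with edgeR) and 1.10 (SE 0.17, BH-adjusted p = 0.00545 with edgeR) on the log2 scale, and *Fbxw7*, whose product marks the *Klf5* product for degradation, by 1.08 (SE 0.16, BH-adjusted p = 0.00543 with edgeR) and 0.93 (SE 0.17, BH-adjusted p = 0.0117 with edgeR). Without untreated control replicate 1 both calls in control cells were lost, and that of *Ctbp2* also without replicate 2 (edgeR's adjusted p up to 0.121 for *Ctbp2* and 0.0828 for *Fbxw7*, the highest of their alternatives). Without either untreated library labelled knockout both calls there were lost (edgeR's adjusted p up to 0.0737 and 0.111). *Wwp1*, another ligase of the *Klf5* product, was not called, at 39.8 to 46.5 CPM in the untreated and 46.1 to 57.1 in the treated libraries. Between treated genotypes 1 of the 11 was called lower, where 6.57% of all tested genes were, namely *Hdac2* (log2 -0.66, SE 0.18, BH-adjusted p = 0.0393 with edgeR), which held in 6 of 15 alternatives (0.00664 to 0.199) and was lost with the replicate block, with the 4 treated libraries alone and with any library left out other than replicate 1 of the treated control libraries.

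Of the MEK5-ERK5-MEF2 pathway upstream of *Klf2* and *Klf4*, 4 of 5 genes were tested, and 1 was called higher in each of the following comparisons, beside 4.25% and 8.47% of all tested genes. *Mef2a* was called higher after TGF-β in the libraries labelled knockout (log2 1.09, SE 0.15, BH-adjusted p = 0.00327 with edgeR), which was lost without replicate 1 of the untreated ones (log2 1.05, BH-adjusted p = 0.0554 with edgeR, the highest of 15 alternatives, the lowest being 1.86e-07). *Mapk7*, the gene of ERK5, was higher in treated libraries labelled knockout than in treated control cells (log2 1.01, SE 0.21, BH-adjusted p = 0.0150 with edgeR). That call was lost with the 4 treated libraries alone and without replicate 2 of either treated group (edgeR's adjusted p up to 0.0937, from 8.82e-04 over the alternatives).

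Of 18 genes described as targets of these factors, 14 were tested, and TGF-β called 3 higher in each genotype (*Smad7*, *Tgfbr1* and *Pdgfa*) and 1 lower in control cells (*Egr1*). Of all tested genes 4.69% (control cells) and 4.25% (libraries labelled knockout) were called higher and 4.47% and 2.57% lower. *Tgfbr1*, the type I receptor of TGF-β, rose by 2.41 (SE 0.25, BH-adjusted p = 9.52e-04 with edgeR) and 2.55 (SE 0.25, BH-adjusted p = 7.90e-04 with edgeR) on the log2 scale and was called in all alternatives. limma-voom did not call *Egr1*. Left-out libraries also ended calls: *Smad7* in either genotype without an untreated library of it (edgeR's adjusted p up to 0.151 and 0.0817), *Pdgfa* without an untreated library labelled knockout (up to 0.0676) and *Egr1* without control replicate 2 or either treated control library (up to 0.162). Between treated genotypes *Tgfb1* and *Cdh1* were called higher in the libraries labelled knockout (log2 0.94 and 0.61, BH-adjusted p = 0.0313 and 0.0433 with edgeR), where 8.47% of all tested genes were. These held in 10 and 8 of 15 alternatives and were lost with the 4 treated libraries alone and without several single libraries (adjusted p up to 0.166 and 0.236, edgeR).

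For comparison, all 16 genes of a list of early SMAD targets were tested, with 9 called higher (*Bhlhe40*, *Ctgf*, *Junb*, *Pmepa1*, *Ski*, *Skil*, *Smad7* and *Snai1* among them) and 2 lower (*Id1* and *Id3*) in control cells, where 4.69% and 4.47% of all tested genes were, at a median log2 fold change of 1.60. In the libraries labelled knockout 10 were called higher, these 8 and *Jun* among them, where 4.25% of all tested genes were, at a median of 2.15. Of these genes *Junb*, *Smad7*, *Id1*, *Id3* and *Jun* lost a call without single libraries (edgeR's adjusted p up to 0.174, 0.151, 0.278, 0.319 and 0.274). *Id1* and *Jun* were also not called with the replicate block, *Id3* and *Jun* not by limma-voom, and *Id1* and *Id3* not with the 4 control libraries alone, so that *Id1*, *Id3* and *Jun* held in 8 of 15 alternatives each. The increase of *Klf10* and *Klf6*, 1.00 to 1.36 on the log2 scale, was smaller than those medians. Between genotypes *Id2* was called lower in the untreated and the treated libraries labelled knockout (log2 -1.28 and -0.82, BH-adjusted p = 0.0195 and 0.0290 with edgeR, up to 0.209 and 0.121 over the alternatives, of which 11 and 9 of 15 called it), and *Bhlhe40*, *Pmepa1*, *Ski* and *Snai1* were called higher in the treated ones. Of all tested genes 0.798% were called lower between untreated genotypes, and 8.47% higher and 6.57% lower between treated ones. Of 15 alternatives these held in 14, 13, 10 and 5 (adjusted p up to 0.0611, 0.0647, 0.127 and 0.226, edgeR), and *Snai1* was not called by DESeq2, with the replicate block, with the 4 treated libraries alone or without any single library other than replicate 1 of the treated control libraries. The others lost the call without replicate 2 of the treated libraries labelled knockout, *Pmepa1* and *Ski* with the 4 treated libraries alone, and *Ski* also without replicate 2 of the treated control libraries or either untreated library labelled knockout.

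For each member called in at least 1 comparison, the 3 genes with the most similar course over the 8 libraries were taken by the root mean square difference of centred log2 CPM. These were *Ppp4r1l-ps*, *Pomt1* and *Zfyve26* for *Klf3* (0.12 to 0.14, where the SD of *Klf3* itself was 0.61), *Ccdc88c*, *Atg2a* and *Slc26a6* for *Klf5* (0.076 to 0.14, SD 0.51) and *Tmem2*, *Dnmt3a* and *Rest* for *Klf6* (0.074 to 0.13, SD 0.69). For *Klf10* they were *Ndnl2*, *Gna13* and *Dnpep* (0.090 to 0.11, SD 0.56), for *Klf7* *Samd8*, *Dnpep* and *Spin1* (0.093 to 0.11, SD 0.42), and for *Klf13* *Smarcd1*, *Btg1* and *Flna* (0.056 to 0.062, SD 0.28). *Dnpep* was thus near both *Klf10* and *Klf7*. Each was the nearest of 13027 genes compared, and a small difference says nothing of shared control.

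Promoter windows of 8 members, 250 bases before to 50 after the gene start, were taken from RefSeq (GRCm38.p6, whose coordinates differ from those of the genes above). The set of windows used here held none for *Klf5* and *Klf10*, which says nothing of their annotation. The letters GGGCGG, a GC box, occurred on either strand in 7 of 8 windows, against 35.7% of 32851 windows of all genes, and CACCC in 5 of 8, against 57.5%. The windows had a GC content from 58.3% in *Klf7* to 77.7% in *Klf11*, where the median of all windows was 52.7%. The letters CAGAC, bound by SMAD proteins, occurred in 1 of 8, that of *Klf3*, against 49.6% of all windows, and GTCTAGAC (0.213% of all), TGAGTCA (5.20%) and TATAAA (13.62%) in 0 of 8. GGGCGG and CACCC matches shared bases in 2 of the 8 windows and in 2.37% of all. These are matches of letters and not sites, and a window without them says nothing of the factor. The windows of the members called after TGF-β are shown for *Klf3* (chr5:64803271-64803570, plus strand), which fell in control cells, with 6 GGGCGG and 5 CACCC matches, and for *Klf6* (chr13:5861239-5861538, plus strand), *Klf7* (chr1:64121340-64121639, minus strand) and *Klf13* (chr7:63938866-63939165, minus strand), called higher in both genotypes or, for *Klf13*, only in the libraries labelled knockout, with 1, 1 and 3 GGGCGG and 0, 3 and 1 CACCC matches. Each is written 5′ to 3′ on the strand of the gene, with the letters of the GC box and of CACCC, read on either strand, in capitals.
Klf3: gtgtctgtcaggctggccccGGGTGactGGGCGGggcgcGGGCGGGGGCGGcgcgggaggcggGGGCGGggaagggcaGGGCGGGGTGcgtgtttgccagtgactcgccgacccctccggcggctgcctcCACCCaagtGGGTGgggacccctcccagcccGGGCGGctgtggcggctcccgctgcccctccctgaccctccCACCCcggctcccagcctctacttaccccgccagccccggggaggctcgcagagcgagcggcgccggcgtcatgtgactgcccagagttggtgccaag
Klf6: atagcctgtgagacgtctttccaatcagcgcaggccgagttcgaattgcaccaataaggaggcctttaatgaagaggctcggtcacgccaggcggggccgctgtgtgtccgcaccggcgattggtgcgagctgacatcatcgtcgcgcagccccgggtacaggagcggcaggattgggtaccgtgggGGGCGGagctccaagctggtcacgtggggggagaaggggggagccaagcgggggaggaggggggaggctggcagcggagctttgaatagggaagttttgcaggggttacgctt
Klf7: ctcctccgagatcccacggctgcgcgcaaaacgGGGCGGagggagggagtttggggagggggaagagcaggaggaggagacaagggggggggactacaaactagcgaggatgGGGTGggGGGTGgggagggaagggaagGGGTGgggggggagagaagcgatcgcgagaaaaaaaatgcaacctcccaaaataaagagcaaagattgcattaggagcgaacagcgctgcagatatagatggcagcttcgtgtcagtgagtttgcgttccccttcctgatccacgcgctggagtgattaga
Klf13: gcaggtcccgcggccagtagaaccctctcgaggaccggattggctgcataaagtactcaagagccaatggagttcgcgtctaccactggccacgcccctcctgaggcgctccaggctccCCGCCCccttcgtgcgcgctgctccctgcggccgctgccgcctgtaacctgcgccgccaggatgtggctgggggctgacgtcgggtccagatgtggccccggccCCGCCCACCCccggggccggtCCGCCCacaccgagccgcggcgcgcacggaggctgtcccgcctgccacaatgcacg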

How the data were processed

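The authors deposited a table of unnormalized counts, whole numbers of reads, for 8 libraries. According to the study's methods, reads were aligned with subjunc to mm10 and mm9, duplicates were removed with samtools 0.1.19, and DESeq2 was used, while the submitters' processing notes name HISAT2, limma and mm10. Methods and labels also differ on the library kit, sequencer and read layout. Which tool counted the reads, and with what strand setting, is not given in the sources used here, so genes overlapping on opposite strands are uncertain. All 37310 gene identifiers are those of GENCODE vM1 on NCBIM37, from which symbols, positions and exon lengths were taken.

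Genes passing filterByExpr were fitted over all 8 libraries, by group, with edgeR 4.0.16 in R 4.3.3 (TMM factors, glmQLFit and glmQLFTest, 4 residual and 5.50 prior degrees of freedom), and p-values were adjusted over all 13028 genes by the Benjamini-Hochberg method. The procedure was tested on simulated data. The standard error is the absolute log2 fold change divided by the square root of F. Calls needed a log2 fold change beyond 0.5 in size besides an adjusted p below 0.05, and for the interaction the adjusted p alone. Alternatives were DESeq2 1.42.0, limma-voom 3.58.1, RLE factors, no filter, a minimum mean of 10 counts, a replicate block, the 4 libraries of a comparison alone, no fold threshold and leaving out single libraries. The 15 alternatives cited per member leave out the fold threshold. Named are all members, the targeted gene, called genes of the lists (of the early SMAD targets not all) and the 3 nearest genes of each called member; other listed genes are given by level only. Members and lists were chosen with earlier results of these data known. Proteins were not analysed here.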

Additional observations from a re-analysis of the deposited data

Results flagged for a closer look

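*Klf4* was not called after TGF-β in either genotype (log2 fold change -0.32 and 0.25, BH-adjusted p = 0.325 and 0.496 with edgeR), but its libraries lay on opposite sides of the untreated ones. Both treated control libraries (43.7 and 31.7 CPM) lay below both untreated ones (46.4 and 47.6 CPM), and both treated libraries labelled knockout (49.6 and 62.8 CPM) lay above both untreated ones (48.5 and 46.3 CPM). The nearest libraries were close, at 43.7 against 46.4 CPM in control cells (466 and 385 counts) and 49.6 against 48.5 CPM in those labelled knockout (608 and 220 counts). The log2 difference of the responses was 0.56 (SE 0.27, 95% interval -0.051 to 1.18), and edgeR's interaction test did not pass (adjusted p = 0.602, unadjusted p = 0.0679, edgeR's quasi-likelihood test). Over 14 alternatives the difference ran from 0.39 to 0.83 with an adjusted p from 0.223 to 0.932 (edgeR, DESeq2 or limma-voom).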

How the results depend on the processing

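With DESeq2, limma-voom, RLE factors, a mean of at least 10 counts and no fold threshold, no member's call changed. Where a library is left out, the other library of its group is assumed to vary like the other groups. Members called higher after TGF-β then numbered 0 to 3 in control cells and 0 to 4 in the libraries labelled knockout, members called lower 1 to 2 and 0 to 1, and members higher between treated genotypes 0 to 4. Fitting only the 4 libraries of a comparison gave 1 member lower after TGF-β in the libraries labelled knockout and 0 higher between treated genotypes. All these fits tested fewer libraries, and the cause of the other changes was not tested.

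Over all tested genes, leaving out single libraries gave 83 to 676 genes higher and 56 to 803 lower after TGF-β in control cells, 92 to 825 and 44 to 556 in the libraries labelled knockout, 22 to 208 and 14 to 185 between untreated genotypes, 337 to 1557 and 149 to 1231 between treated genotypes, and 0 to 6 for the interaction. Without the filter, TGF-β called 1019 higher and 1002 lower in control cells, 1206 and 626 in libraries labelled knockout, 328 and 428 between untreated and 1667 higher between treated genotypes, and 211 by the interaction. With the libraries of a comparison alone the counts were 284 and 199 in control cells, 380 and 417 between untreated genotypes, and 259 and 143 between treated ones. DESeq2 called 227 higher and 201 lower between untreated genotypes and 30 by the interaction, and limma-voom 78 and 59 between untreated genotypes.

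The deviations of same-numbered libraries across 13028 genes had Pearson's r = 0.30 for untreated and treated control cells, 0.098 for the untreated genotypes, -0.0092 within the libraries labelled knockout and -0.47 for the treated genotypes. It was -0.17 for untreated control cells with treated libraries labelled knockout, and 6.73e-04 for treated control cells with untreated ones labelled knockout. Same-numbered libraries thus did not deviate together in every pair of groups. Whether libraries were paired in another way was not tested. The replicate block gave 80 genes higher and 70 lower between untreated genotypes, 439 and 392 after TGF-β in control cells, 431 and 245 in libraries labelled knockout, and 858 and 632 between treated genotypes. With it *Klf7* in control cells and *Klf13* in the libraries labelled knockout were not called, and no other member's call changed. Swapping the numbers of the treated knockout-labelled pair (chosen after seeing the data), 1539 genes were higher and 1270 lower between treated genotypes, with *Klf3*, *Klf4* and *Klf5*, 3 members, among the former.

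Signs changed only for members that were not called. Between untreated genotypes *Klf4* was at -0.026 without the filter, -0.0032 with 4 libraries and -0.024 to 0.045 with single libraries left out, *Klf6* at 0.0022 with limma-voom and -0.19 to 0.19, *Klf7* at -3.81e-04 without the filter and -0.032 to 0.11, *Klf3* at -0.028 to 0.23 and *Klf13* at -0.12 to 0.0095. With single libraries left out, *Klf6* ran from -0.095 to 0.59 and *Klf9* from -0.55 to 0.42 between treated genotypes, and the interaction from -0.064 to 0.62 for *Klf6*, -0.17 to 0.80 for *Klf9*, -0.079 to 0.24 for *Klf10* and -0.17 to 0.38 for *Klf11*. *Klf2* stayed below the floor of 3 counts, 0.238 to 0.661 CPM, in every library, the deepest included.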
